A study of Mus musculus with 34 samples.

Results

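The circadian clock genes described here are Per1, Per2, Per3, Cry1, Cry2, Arntl, Clock, Dbp, Nr1d1 and Nr1d2, chosen by symbol. They are 10 of the 54540 symbols listed in at least 1 of the 5 batches, of which batch 2 lists only 11808 genes. All 10 clock genes were present in the tables of all 5 batches and passed the filter on low counts in each comparison. The values are counts of mRNA bound to tagged ribosomes, taken with the RiboTag method, in which Cre switches on an HA-tagged form of the ribosomal protein Rpl22 and ribosomes are pulled down by that tag. The mice were of a C57/BL6 background at postnatal day 60, all carried Cre and RiboTag, and the tissue was cortex and hippocampus (the extraction protocol names the cortex alone). The study looked for transcripts of interneurons that change with fear learning, and used a convulsant as a case of broad excitation. Parvalbumin (PV) interneurons were reached with Cre driven from Pvalb and somatostatin (SST) interneurons with Cre driven from Sst. Below, "PV" and "SST" name the driver, and any cell that used it could carry tagged ribosomes. The libraries also held transcripts that mark other cells, such as astrocyte markers in batch 1 (below), and their source was not tested. In batch 1, PV:Cre/Ribotag mice had received pentylenetetrazol (PTZ, a blocker of GABA receptors that excites neurons across the brain; n = 4) or saline (n = 3). In batch 2, Sst:Cre/Ribotag mice had received PTZ (n = 3) or saline (n = 4), and PV:Cre/Ribotag mice saline (n = 2). In batch 3, PV:Cre/Ribotag mice had gone through contextual fear conditioning (CFC, foot shocks in a set context; n = 3), home cage mice were PV:Cre/Nr4a1-f/f/Ribotag (labelled conditional knockout, cKO, of the activity-induced receptor gene Nr4a1; n = 3), and PV:Cre/Ribotag mice stayed in the home cage (n = 3). Batch 4 held Sst:Cre/Ribotag mice after CFC (n = 3) or from the home cage (n = 3), and batch 5 home cage mice of the genotype Sst:Cre/Nr4a1-f/f/Ribotag (n = 3). Neither the hour of the day at which tissue was taken nor the delay after PTZ or CFC is stated in the labels.

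The mammalian clock is a feedback loop of transcription. CLOCK and ARNTL (also known as BMAL1) bind E-box sequences as a pair and switch on the Period and Cryptochrome genes, whose proteins enter the nucleus and inhibit that pair. The REV-ERB receptors encoded by Nr1d1 and Nr1d2 repress Arntl, and DBP is an output factor that binds D-box sequences in other clock promoters. Per1 has a second input, since calcium and cAMP signals act on it through the factor CREB, and it is known as an immediate-early gene in the clock tissue of the hypothalamus after light and in other neurons after strong activity. Transcripts of most of these genes rise and fall over the day in many tissues, the cortex among them.

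Per1, at chr11:69095217-69109960 on the plus strand (GRCm38, GENCODE M21), has 2 start windows in the RefSeq promoter table, which holds 250 bases before and 50 bases after each start. They are shown with those of Per3 and of the second Arntl start, because Per1, Per2, Per3 and Arntl are the members whose PV libraries after PTZ all stood above the saline libraries (below). Of the 10 members, 9 had at least 1 window, 13 windows in all, and the remaining member was Per2. Capitals mark matches, on either strand, to the E-box CACGTG, the cAMP response element TGACGTCA, its shorter form TGACG, the D-box TTATGTAA or TTACGTAA, and the ROR and REV-ERB element TAGGTCA or TGGGTCA; the shorter form lies within the full cAMP response element. All 4 are from build GRCm38.p6.
Per1 window 1 (chr11:69098699-69098998, plus strand): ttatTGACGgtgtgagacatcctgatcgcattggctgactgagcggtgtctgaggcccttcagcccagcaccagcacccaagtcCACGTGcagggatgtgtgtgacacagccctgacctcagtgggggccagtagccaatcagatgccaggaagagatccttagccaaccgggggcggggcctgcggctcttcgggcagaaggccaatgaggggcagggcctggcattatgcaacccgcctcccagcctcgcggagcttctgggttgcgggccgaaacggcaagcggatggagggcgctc
Per1 window 2 (chr11:69099902-69100201, plus strand): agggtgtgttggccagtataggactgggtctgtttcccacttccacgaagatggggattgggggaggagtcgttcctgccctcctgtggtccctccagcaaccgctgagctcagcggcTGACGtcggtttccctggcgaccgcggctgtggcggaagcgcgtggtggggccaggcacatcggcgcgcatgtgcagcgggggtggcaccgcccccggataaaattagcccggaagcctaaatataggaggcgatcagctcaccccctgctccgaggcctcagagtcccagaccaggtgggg
Per3 (chr4:151044616-151044915, minus strand): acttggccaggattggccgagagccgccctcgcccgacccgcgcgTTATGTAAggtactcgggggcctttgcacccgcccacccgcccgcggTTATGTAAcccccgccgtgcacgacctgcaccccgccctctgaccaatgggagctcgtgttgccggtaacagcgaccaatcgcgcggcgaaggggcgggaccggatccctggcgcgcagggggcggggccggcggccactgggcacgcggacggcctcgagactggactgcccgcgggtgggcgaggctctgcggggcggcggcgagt
Arntl window 2 (chr7:113207261-113207560, plus strand): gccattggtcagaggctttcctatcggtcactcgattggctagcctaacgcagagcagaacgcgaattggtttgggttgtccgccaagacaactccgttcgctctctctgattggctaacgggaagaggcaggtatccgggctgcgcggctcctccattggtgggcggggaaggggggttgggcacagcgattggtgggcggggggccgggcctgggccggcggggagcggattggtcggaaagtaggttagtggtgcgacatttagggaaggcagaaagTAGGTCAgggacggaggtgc

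The upstream Per1 window held an E-box that begins 166 bases before its start and TGACG that begins 246 bases before it. The other Per1 window held TGACG from 132 bases before its start and no E-box. Both D-box matches of the Per3 window were TTATGTAA, beginning 205 and 158 bases before the start, and the Arntl window held TAGGTCA from base 31 after the start. Among all 32851 promoter windows of the table, an E-box was found in 7.15%, TGACG in 20.8%, the full cAMP response element in 1.79%, a D-box in 1.06% and the ROR and REV-ERB element in 6.45%. Among the 13 windows of members, an E-box was found in 2, TGACG in 4, the full element in 0, a D-box in 1 and the ROR and REV-ERB element in 1. Counted by gene, which is not the unit of the shares above, an E-box was found for 2 of the 9 members with a window (Per1 and Cry1). TGACG was found for 3 (Per1, Cry1 and Cry2), the full element for 0, a D-box for 1 and the ROR and REV-ERB element for 1. The first Arntl window, not shown, held no match. A match describes the letters of these windows only.

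Libraries held between 4933110 and 27282912 counts, and levels are given in CPM, a gene's count relative to the total of its library, with totals scaled by the TMM method within each batch. Levels are not compared between batches. Over 8159 genes, the log2 ratio of PV home cage (batch 3) to PV saline (batch 1) fell with exonic gene length (Pearson's r = -0.65 across genes, which are not independent), with a median of 1.92 in the shortest sixth of genes and -1.88 in the longest sixth. The same held for SST home cage (batch 4) over SST saline (batch 2), with r = -0.58 over 8406 genes. Each comparison of groups below is therefore made within a batch, and only contrasts of responses set batches against each other. The defining markers were checked against the labels. Sst had 1750 to 3400 CPM in SST saline libraries, against 54.3 to 68 CPM in PV saline libraries of the same batch, and Pvalb 6.22 to 12 against 243 to 362 CPM. In batch 1, however, Pvalb had 40.3 to 128 CPM in PV PTZ and 15.9 to 22.1 CPM in PV saline libraries, where Sst had 30.2 to 74.4 and 38 to 62.3 CPM, and all 3 PV saline libraries and PTZ replicate 2 held less Pvalb than Sst. In batch 3, Sst was above Pvalb in PV CFC replicates 1 (202 against 179 CPM) and 3 (194 against 166 CPM), in cKO replicate 3 (386 against 156 CPM) and in home cage replicates 2 (215 against 190 CPM) and 3 (464 against 163 CPM).

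Levels of different genes were set side by side per kilobase of exonic sequence, in CPM per kb, and only within batch 1. In PV saline libraries Nr1d1 was highest, at 57.5 ± 10.9 CPM per kb, followed by Nr1d2 at 31.6 ± 2.52 (SD, n = 3). Cry2 (14.8 to 22.5 CPM per kb), Clock (15.8 to 21.3) and Per1 (13.3 to 17) followed, and their ranges overlapped, so their order is not settled. Per2 had 9.02 ± 1.38, Dbp 6 ± 1.34, Per3 4.65 ± 0.449, Cry1 3.09 ± 0.819 and Arntl 1.79 ± 0.143 CPM per kb. In PV PTZ libraries Per1 had 39.5 ± 23.3 CPM per kb (n = 4). Its range of 20.1 to 67.1 overlapped those of Nr1d1 (48.4 to 79.3), Nr1d2 (16.1 to 31.8), Clock (18.1 to 27.5) and Cry2 (15.4 to 23.9), so its place among them is not settled either.

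Per1 had the largest log2 fold change of the members in PV libraries after PTZ. It had 285, 378, 114 and 113 CPM in PTZ replicates 1 to 4, against 95.8, 74.7 and 79.4 CPM in saline replicates 1, 3 and 4. All 4 PTZ libraries lay above all 3 saline libraries, but replicates 1 and 2 were at 3.42 and 4.54 times the saline mean and replicates 3 and 4 at 1.37 and 1.36 times. The groups averaged 222 ± 131 CPM after PTZ and 83.3 ± 11.1 CPM after saline (SD, n = 4 and 3), a log2 fold change of 1.42 ± 0.42 (SE). This did not pass edgeR's quasi-likelihood test (Benjamini-Hochberg adjusted p = 0.297 over 13598 genes). DESeq2, run as an alternative, gave 1.41 ± 0.40 with an adjusted p of 0.0369, so the call depends on the tool. Without PTZ replicates 1 and 2 together, left out after their values were seen, the log2 fold change was 0.45 (edgeR adjusted p = 0.611).

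**Figure D1:**
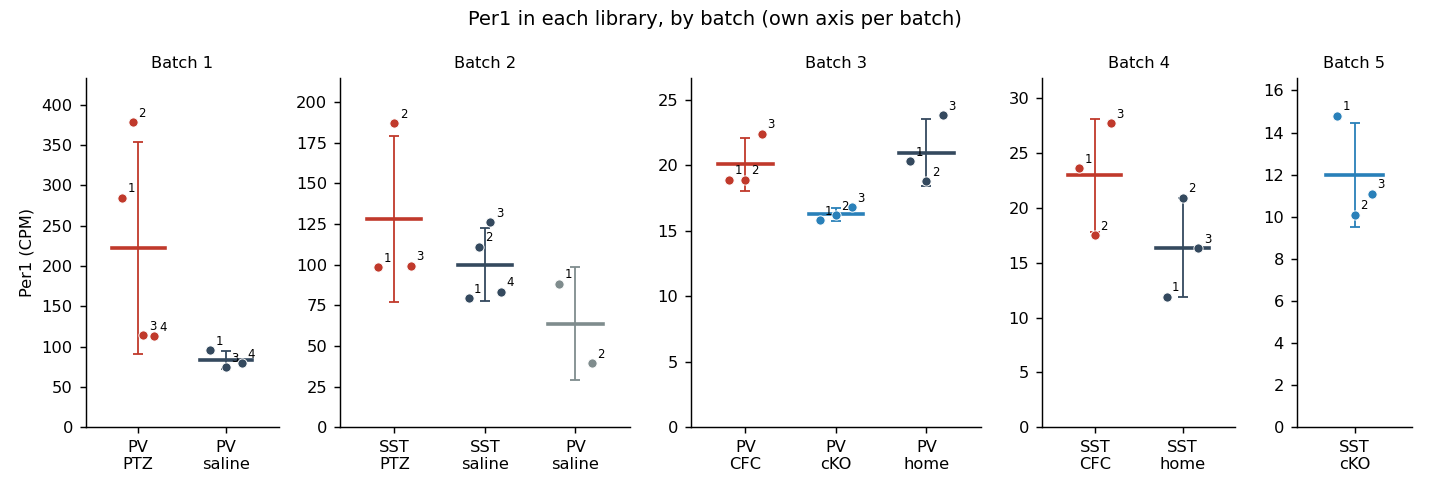
Per1 in CPM (vertical axis, linear, its own scale in each batch) for all 34 libraries in the 11 groups. Points are libraries with their replicate numbers, horizontal bars are group means and whiskers SDs. PTZ replicates 1 and 2 of the PV libraries, at 285 and 378 CPM, stand apart from replicates 3 and 4, at 114 and 113 CPM.

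Per2 and Per3, the other Period genes, were also higher in every PV library after PTZ, and more evenly so. Per2 had 103, 106, 82.5 and 84.5 CPM after PTZ, against 60.4, 53.8 and 44.3 CPM after saline. Per3 had 58.7, 102, 82.2 and 79 CPM after PTZ, against 40.5, 44.3 and 49.1 CPM after saline. For neither gene did the groups overlap. The log2 fold changes were 0.83 ± 0.19 for Per2 (edgeR adjusted p = 0.247) and 0.85 ± 0.21 for Per3 (adjusted p = 0.267), and DESeq2 gave adjusted p-values of 0.014 and 0.0351. Without PTZ replicates 1 and 2 together they were 0.66 for Per2 and 0.85 for Per3, with 0.45 for Per1 and 0.22 for Arntl. Those replicates were picked after their high Per1 values were seen. The fall of Per1, and of genes high in the same libraries, follows from that choice, so these values do not rank the genes.

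Arntl, the partner of CLOCK, was the remaining member without overlap, at 24.2, 22.2, 15.9 and 15.4 CPM after PTZ against 13, 14.7 and 12.7 CPM after saline (log2 fold change 0.53 ± 0.23, edgeR adjusted p = 0.357). PTZ replicates 1 and 2 were above replicates 3 and 4 here, as they were for Per1, Per2, Cry2 and Nr1d1. Clock, which encodes the other member of that pair, had 249 to 378 CPM after PTZ and 217 to 292 CPM after saline. The inhibitors Cry1 and Cry2 overlapped between groups, with 9.27 to 16.9 and 97.6 to 151 CPM after PTZ against 7.76 to 13.2 and 93.5 to 142 CPM after saline. So did Dbp (12.8 to 20.7 against 15.6 to 22.6 CPM), Nr1d1 (149 to 244 against 144 to 211 CPM) and Nr1d2 (87.2 to 172 against 156 to 183 CPM). The log2 fold changes of these 6 members ran from -0.30 for Nr1d2 to 0.23 for Clock.

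**Figure D2:**
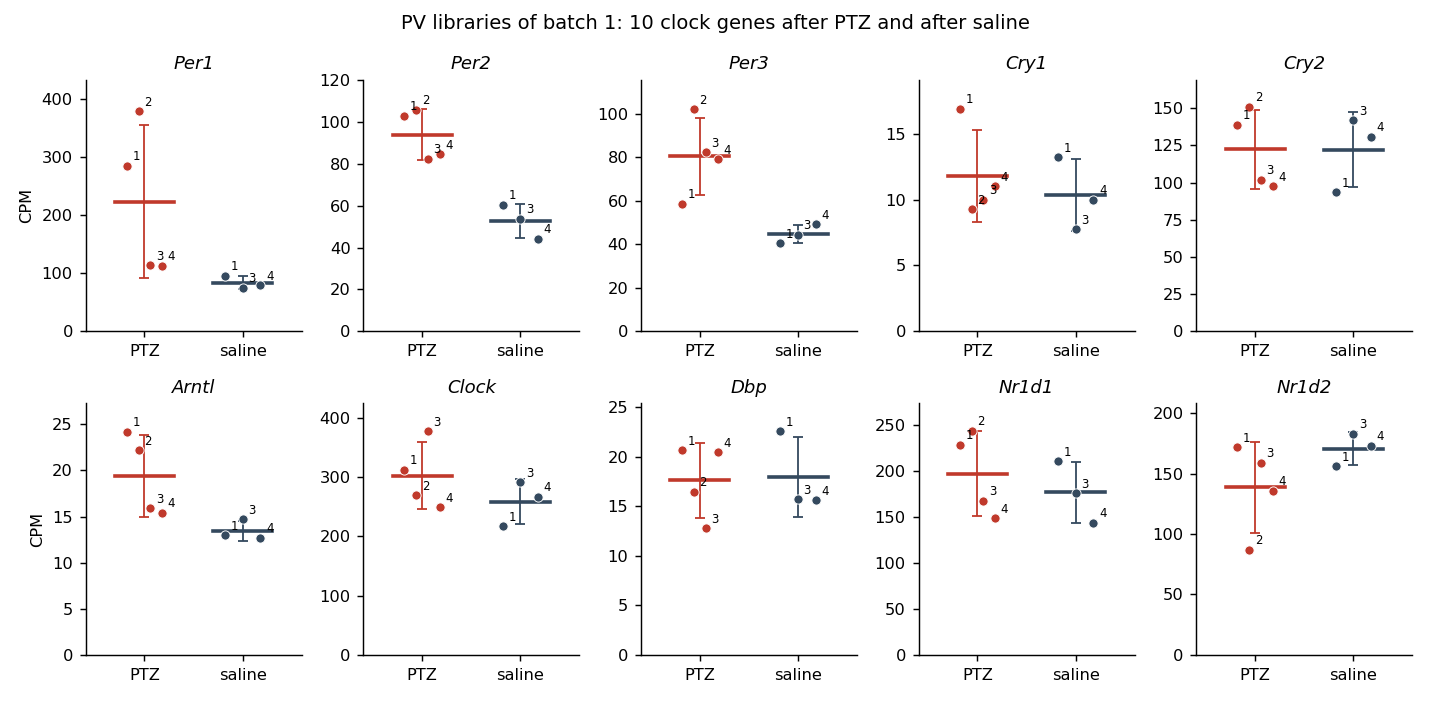
CPM of each of the 10 members (vertical axes, linear, one scale per gene) in PV libraries of batch 1 after PTZ (left in each panel, n = 4) and after saline (right, n = 3); points carry replicate numbers, bars are means and whiskers SDs. Per1, Per2, Per3 and Arntl show no overlap between groups, and PTZ replicates 1 and 2 are above PTZ replicates 3 and 4 for Per1, Per2, Cry2, Arntl and Nr1d1.

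In this comparison edgeR called 0 of the 10 members, where it called 0.0294% of all genes, and 4 members had an unadjusted p under 0.05, where 13.8% of genes had. DESeq2 called 3 members, all higher, where it called 1.6% of genes, and limma voom called 0, where it called 0.0294%. Groups without overlap, PTZ above saline, were found for 4 members and for 7.56% of genes. The activity genes Fos, Npas4 and Nr4a1 were high in all 4 PTZ libraries (94.5 to 171, 115 to 223 and 90.6 to 121 CPM) against saline libraries (3.19 to 16.3, 3.22 to 10.6 and 4.63 to 37.3 CPM). The order of Fos and Npas4 among PTZ replicates differed from that of Per1, since Fos was lowest in replicate 2 and Npas4 highest in replicate 3. Nr4a1 had 121, 110, 106 and 90.6 CPM in PTZ replicates 1 to 4, so replicates 1 and 2 were above 3 and 4, as for Per1. Other measures differed between the groups as well, some with overlap. Summed vascular and mural markers had 96.9 to 204 CPM after PTZ and 39.6 to 81.2 CPM after saline, with 14 of 14 tested markers positive. Summed microglia markers had 63.8 to 520 CPM after PTZ and 48.4 to 145 CPM after saline, with 10 of 10 positive. Oligodendrocyte (10 of 10), excitatory neuron (10 of 11) and astrocyte markers (9 of 10) were also mostly positive, though their sums overlapped. Saline replicate 1 held 4980 CPM of astrocyte and 3150 CPM of excitatory neuron markers. Saline replicates 3 and 4 held 1010 and 1130 CPM of astrocyte and 1380 and 1400 CPM of excitatory neuron markers. The 10 PV markers summed to 5630, 2670, 6670 and 6380 CPM in PTZ replicates 1 to 4 and to 5640, 9210 and 7820 CPM in the saline libraries. PTZ replicate 2, with the highest Per1, had the lowest sum. Of these markers 9 were negative and 1 positive. The positive one was Pvalb itself, at 80 CPM after PTZ and 20 CPM after saline (2.00 ± 0.35, edgeR adjusted p = 0.159). The sum did not separate the cell types in batch 2, at 6290 to 6560 CPM in SST saline and 6020 to 6920 CPM in PV saline libraries. The part of these measures in the Period values was not tested, and in bulk RNA fewer cells and less RNA per cell cannot be told apart.

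In SST libraries after PTZ, Per2 had the largest value among the members and Per1 overlapped between groups. Per1 had 98.3, 187 and 99.3 CPM after PTZ, against 79.3, 111, 126 and 83.3 CPM after saline. Only PTZ replicate 2 stood above the saline range, and the log2 fold change was 0.36 ± 0.28 (edgeR adjusted p = 0.989), and -0.01 without that library. Per2 had 82.6, 103 and 88.8 CPM after PTZ, against 21.8, 61, 83.1 and 39.6 CPM after saline. The lowest PTZ library lay just under the highest saline library, and the log2 fold change of 0.83 ± 0.34 did not pass (adjusted p = 0.989). Per3 had 21.2 to 30.2 CPM after PTZ and 16 to 28.3 CPM after saline.

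The other 7 members overlapped between PTZ and saline in SST libraries. Over all 11784 genes tested, PTZ lay above saline without overlap for 539 and below for 688, against 0 members either way. Clock had 252 to 274 and 225 to 270 CPM, Cry2 109 to 121 and 96.8 to 115 CPM, Cry1 9.77 to 13.7 and 7.03 to 11.7 CPM, and Arntl 7.19 to 11.3 and 6.87 to 10.3 CPM. Dbp had 4.23 to 7.63 CPM after PTZ and 6.64 to 8.73 CPM after saline, Nr1d1 129 to 171 and 146 to 174 CPM, and Nr1d2 110 to 115 and 96.6 to 118 CPM. edgeR called 0 of 10 members here, where it called 0.144% of genes, 1 member (Per2) had an unadjusted p under 0.05, where 4.34% of genes had, and DESeq2 and limma voom called 0 members, where they called 0.322% and 0.229% of genes. Summed vascular and mural markers had 62.9 to 82.2 CPM after PTZ and 27.8 to 57.9 CPM after saline, with 8 of 10 tested markers positive, and summed astrocyte markers 1210 to 1370 and 1120 to 1180 CPM, with 5 of 10 positive. Their part was not tested. Fos and Npas4 rose in the same libraries, by 3.77 ± 0.37 and 4.11 ± 0.32 on the log2 scale (edgeR adjusted p = 0.000446 and 0.000107). The difference between the PTZ responses was tested directly, with PV in batch 1 and SST in batch 2, so that cell type and batch cannot be told apart in it. For Per1, SST minus PV was -1.10 ± 0.55 (adjusted p = 0.82 over 11743 genes), for Per3 -0.66 ± 0.32 (adjusted p = 0.82) and for Per2 -0.03 ± 0.43 (adjusted p = 0.988), so a difference between cell types was not shown for any Period gene. edgeR called 0 of 10 members in this test, where it called 0% of genes, and 0 members had an unadjusted p under 0.05, where 5.13% of genes had.

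**Figure D3:**
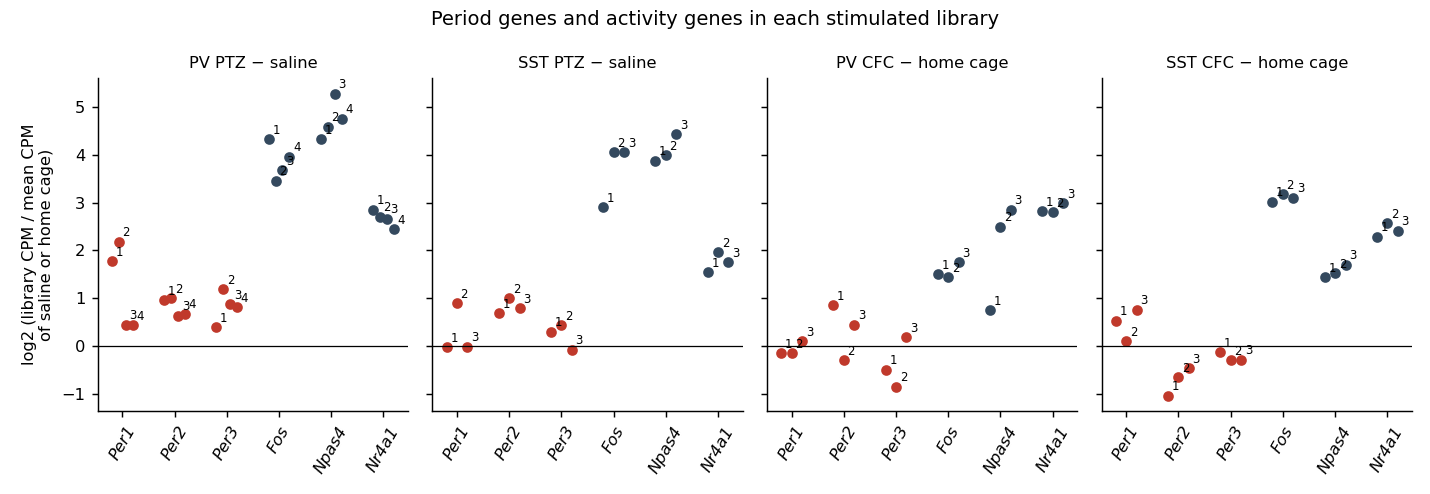
Log2 of each stimulated library's CPM over the mean CPM of its saline or home cage group, for the Period genes (red) and for Fos, Npas4 and Nr4a1 (dark); points are libraries with replicate numbers, and 0 marks the saline or home cage mean. Fos is at 1.44 or higher in every stimulated library, while Per1 reaches 2.18 in PV PTZ replicate 2 and -0.15 in PV CFC replicates 1 and 2.

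Fear conditioning left Per1 in PV libraries within the home cage range. It had 18.9, 18.9 and 22.4 CPM after CFC, against 20.3, 18.8 and 23.8 CPM in the home cage (log2 fold change -0.06 ± 0.18, edgeR adjusted p = 0.882). Per2 had 7.74, 3.51 and 5.86 CPM after CFC against 2.73, 2.06 and 8.08 CPM in the home cage, and Per3 5.6, 4.36 and 8.96 CPM against 1.8, 8.33 and 13.5 CPM. These levels are low, with home cage counts as low as 30 for Per2, and the 3 home cage libraries spread widely. In the same libraries Fos had 75 to 93.5 CPM after CFC and 17.6 to 36.2 CPM in the home cage, and Nr4a1 56.1 to 64.3 CPM and 5.07 to 11.7 CPM, without overlap.

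Nr1d2, Cry1 and Cry2 gave the largest log2 fold changes in this comparison. Per2, at 0.44, was close to Cry2, and leaving out 1 library gave 0.11 to 1.24 for it. Per3 was at -0.30. Cry1 had 21.2, 22.7 and 24.8 CPM after CFC, against 18.6, 14.2 and 15.1 CPM in the home cage (log2 fold change 0.52 ± 0.18, edgeR adjusted p = 0.189). Cry2 had 143, 159 and 146 CPM after CFC, against 121, 112 and 94.4 CPM in the home cage (0.45 ± 0.14, adjusted p = 0.186). Neither overlapped between groups. Nr1d2 had 103, 118 and 86.7 CPM after CFC, against 89.5, 52.8 and 56.1 CPM in the home cage, where replicate 1 lay within the CFC range (0.63 ± 0.21, adjusted p = 0.187). Without home cage replicate 1, Cry2 (0.54, adjusted p = 0.0425) and Nr1d2 (0.92, adjusted p = 0.0191) passed, and edgeR called 1481 genes in place of 0. With no filter on low counts Nr1d2 also passed (0.66, adjusted p = 0.0111). Arntl, Clock, Dbp and Nr1d1 overlapped, with log2 fold changes from -0.17 to 0.26.

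edgeR called 0 of 10 members after CFC in PV libraries, where it called 0% of genes. An unadjusted p under 0.05 was found for 3 members, where 18.7% of genes had one, and groups without overlap, CFC above home cage, for 2 members, where 13.6% of genes had them. DESeq2 called 0 of the 8 members to which it gave an adjusted p, where it called 6.79% of genes, and limma voom 0 of 10, where it called 0.0066%. Fold changes in this comparison moved with gene length (r = 0.28 across 14916 genes, medians of -0.44 and 0.18 in the shortest and the longest sixth). With scaling within 6 length classes, added after this was seen, the log2 fold changes were 0.47 for Cry1, 0.30 for Cry2 and 0.50 for Nr1d2. Marker sums moved with these groups without overlap. The 10 PV markers summed to 7850, 7810 and 6850 CPM after CFC, against 6840, 6480 and 5960 CPM in the home cage, with 6 of 10 positive. The SST markers summed to 569, 446 and 569 CPM after CFC, against 596, 668 and 1090 CPM in the home cage, with 5 of 7 tested markers negative. Their part in the clock gene values was not tested.

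In SST libraries the member that stood apart after CFC was Clock. It had 24.9, 33.7 and 29.3 CPM after CFC, against 13.1, 21.1 and 21.2 CPM in the home cage. The groups did not overlap, and the log2 fold change was 0.66 ± 0.24 (edgeR adjusted p = 0.82). Per1 had 23.6, 17.5 and 27.7 CPM after CFC, against 11.9, 20.9 and 16.3 CPM in the home cage (0.49 ± 0.27, adjusted p = 0.97). CFC replicate 2 lay within the home cage range. Per2 went the other way, with 6.04, 7.91 and 9.07 CPM after CFC against 18.4, 11.4 and 7.51 CPM in the home cage (-0.70 ± 0.37, adjusted p = 0.958).

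Home cage replicate 1 shaped several of these values, with the lowest Per1, Per3, Cry1 and Clock and the highest Per2, Cry2 and Arntl of its group. Without it the log2 fold changes were 0.30 for Per1, -0.30 for Per2, 0.47 for Clock and, for Arntl, 0.37 against -0.07 with all libraries. Per3 (9.46 to 10.6 against 5.29 to 17.6 CPM), Cry1 (22.6 to 27.9 against 18.2 to 30.7 CPM) and Cry2 (175 to 186 against 173 to 200 CPM) overlapped between CFC and home cage. Dbp (62.1 to 74.9 against 67.9 to 73.9 CPM), Nr1d1 (62.6 to 81.4 against 67.4 to 74.7 CPM) and Nr1d2 (66 to 75.8 against 58.6 to 82.4 CPM) overlapped too. edgeR called 0 of 10 members, where it called 0.0411% of genes, 1 member had an unadjusted p under 0.05, where 5.57% of genes had, and DESeq2 and limma voom called 0, where they called 0.608% and 0.0342% of genes. CFC above home cage without overlap was found for 1 member and 4.8% of genes. Summed vascular and mural markers had 64.4 to 104 CPM after CFC and 167 to 780 CPM in the home cage, with 15 of 15 negative, and summed microglia markers 61.9 to 66.2 and 76.8 to 108 CPM, with 9 of 10 negative. Their part in the clock gene values was not tested.

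**Figure D4:**
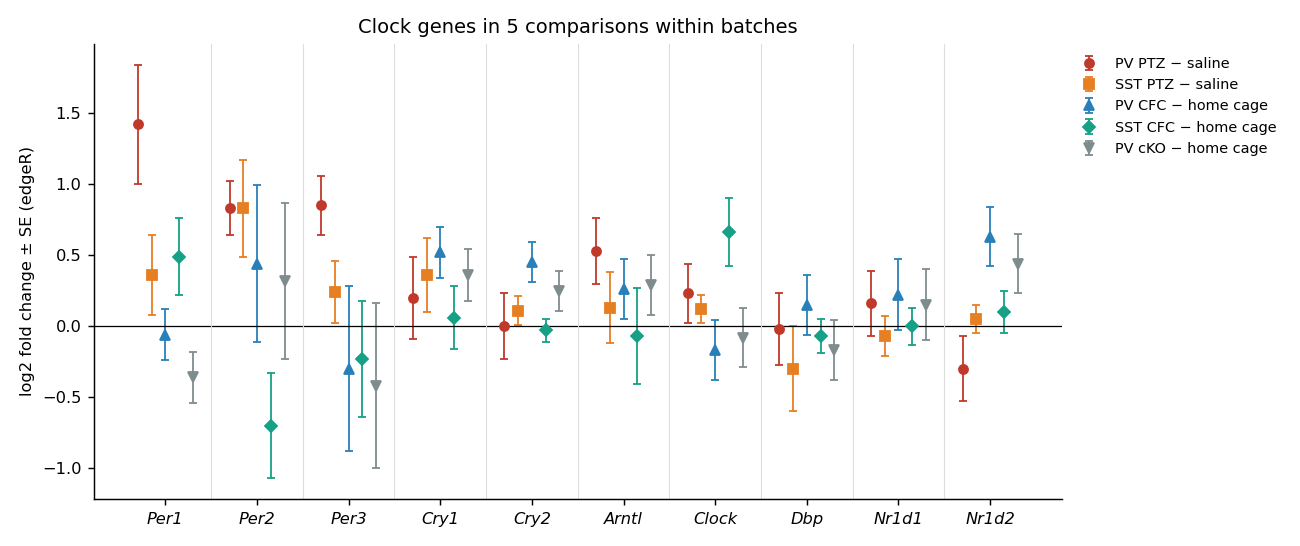
Log2 fold change with its standard error (edgeR, vertical axis) of the 10 members in the 5 comparisons of stimulus or genotype within batches; 0 is no difference. Per1 ranges from -0.36 in PV cKO to 1.42 in PV PTZ libraries, and none of the values shown passed an adjusted p of 0.05.

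Contrasts of responses were also tested between stimuli and, for CFC, between cell types. Each sets libraries of different batches against each other, so stimulus or cell type and batch cannot be told apart in them. In PV libraries the CFC response of Per1 minus its PTZ response was -1.54 ± 0.46 (edgeR adjusted p = 0.294 over 14289 genes), and that of Nr1d2 was 0.88 ± 0.33 (adjusted p = 0.294). In SST libraries Per2 gave -1.51 ± 0.53 (adjusted p = 0.524 over 11451 genes) and Clock 0.58 ± 0.21 (adjusted p = 0.541), while Per1 gave 0.16 ± 0.41. Between cell types, the CFC response in SST minus that in PV was 0.61 ± 0.30 for Per1 (adjusted p = 0.349 over 16075 genes), 0.90 ± 0.32 for Clock (adjusted p = 0.22) and -0.42 ± 0.17 for Cry2 (adjusted p = 0.255). edgeR called 0 of 10 members in each of the 3, where it called 0.007%, 0.0873% and 0% of genes, in the order given. In each of them 2 members had an unadjusted p under 0.05, where 13.8%, 7.42% and 15.3% of genes had. DESeq2 called 0 members in each, where it called 41 of 13961, 64 of 11452 and 223 of 5986 genes to which it gave an adjusted p. It also called 0 members in the contrast of PTZ responses between cell types, where it called 1 of 11748 genes. A member without an adjusted p from DESeq2 would count as not called here.

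Per1 was lower in every PV library labelled Nr4a1 cKO than in the PV:Cre/Ribotag home cage libraries, though not past the test. It had 15.8, 16.2 and 16.8 CPM in cKO libraries, against 20.3, 18.8 and 23.8 CPM in home cage libraries (log2 fold change -0.36 ± 0.18, edgeR adjusted p = 0.308). Cry1 was above without overlap, at 19.3, 20.1 and 22 CPM in cKO libraries against 18.6, 14.2 and 15.1 CPM in home cage libraries (0.36 ± 0.18, adjusted p = 0.321). Nr1d2 had 106, 88.6 and 75.5 CPM against 89.5, 52.8 and 56.1 CPM (0.44 ± 0.21, adjusted p = 0.293), and passed only without home cage replicate 1 (0.73, adjusted p = 0.0345), where the count of called genes was 1224 against 21 with all libraries. The other 7 members overlapped, with Per2 at 2.93 to 8.46 CPM in cKO libraries (log2 fold change 0.32) and Dbp at 49.2 to 73.9 CPM. Per3 had the most negative log2 fold change of the members (-0.42), which ran from -0.90 to 0.20 with 1 library left out. Fold changes moved with gene length here too (r = 0.21 across 14916 genes, medians of -0.36 and 0.13 in the shortest and the longest sixth). Nr4a1 counts did not separate the genotypes, at 6.68 to 16.5 CPM in libraries labelled cKO and 5.07 to 11.7 CPM in the others (0.38 ± 0.35, adjusted p = 0.592), and the labels do not say which part of the gene is deleted. Pvalb had 1050, 1350 and 156 CPM in cKO libraries and 155 to 190 CPM in the others, and summed oligodendrocyte markers had 416 to 984 and 221 to 400 CPM, with 10 of 10 markers positive. Summed microglia markers had 55.2 to 78 and 47.7 to 50.1 CPM, with 7 of 10 positive. Their part was not tested. These home cage libraries are also those of the CFC comparison, so the 2 comparisons are not independent. edgeR called 0 of 10 members, where it called 0.139% of genes, 0 members had an unadjusted p under 0.05, where 17.8% of genes had, and DESeq2 and limma voom called 0, where they called 4.72% and 0.145% of genes. Groups without overlap were found for 1 member above and 1 below, where 9.37% of genes lay above and 9.02% below.

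SST libraries labelled Nr4a1 cKO form batch 5 alone, so genotype and batch cannot be told apart there and only values are given. Per1 had 14.8, 10.1 and 11.1 CPM, Per2 11.9, 16.9 and 10.3 CPM and Per3 14.7, 10 and 9.38 CPM. Dbp had 55.7, 28.6 and 28.3 CPM, with replicate 1 apart from the others. Cry1 had 21.2 to 25.8 CPM, Cry2 160 to 169 CPM, Arntl 23.4 to 26 CPM and Clock 31.4 to 37.7 CPM. Nr1d1 had 59.9 to 84.5 CPM and Nr1d2 98.7 to 115 CPM.

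Between the cell types, SST and PV saline libraries of batch 2 differed in most members. The Period genes Per2 and Per3 and both activators were higher in SST libraries, and Cry2, Dbp and Nr1d2 were lower. Clock had 225, 270, 245 and 243 CPM in SST libraries, against 142 and 150 CPM in PV libraries (log2 fold change 0.75 ± 0.11, edgeR adjusted p = 0.000207). Arntl had 6.89, 10.3, 9.4 and 6.87 CPM in SST libraries, against 4.23 and 2.57 CPM in PV libraries (1.27 ± 0.35, adjusted p = 0.00907). Neither overlapped, although Arntl rests on as few as 12 counts in 1 PV library. With 4 against 2 libraries, lack of overlap is common. It was found for 3 of the 10 members above and 3 below, and for 3622 of 11784 genes above and 3364 below. Per3 had 16, 24.6, 28.3 and 20.2 CPM in SST libraries, against 7.86 and 12.4 CPM in PV libraries (1.15 ± 0.29, adjusted p = 0.00598). Per2 had 21.8, 61, 83.1 and 39.6 CPM in SST libraries, against 15.4 and 25.9 CPM in PV libraries, and SST replicate 1 lay within the PV range (1.33 ± 0.44, adjusted p = 0.0242). The call of Per2 was lost without SST replicate 2 or 3 or without either PV library (adjusted p from 0.0536 to 0.332), with limma voom (adjusted p = 0.0909) and with only these 6 libraries in the fit (adjusted p = 0.053).

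Cry2, whose protein inhibits the CLOCK and ARNTL pair, had 96.8, 106, 109 and 115 CPM in SST libraries, against 180 and 168 CPM in PV libraries (-0.71 ± 0.11, edgeR adjusted p = 0.000296). Nr1d2 had 118, 113, 96.6 and 104 CPM in SST libraries, against 175 and 168 CPM in PV libraries (-0.67 ± 0.12, adjusted p = 0.000486). The spread within groups was small for both. Dbp had 8.53, 6.64, 8.73 and 6.71 CPM in SST libraries, against 25.3 and 11.1 CPM in PV libraries (-1.26 ± 0.33, adjusted p = 0.00678), and -0.55 (adjusted p = 0.171) without PV replicate 1. Dbp shares 18% of its exonic bases with Sphk2 on the opposite strand, and the labels do not say whether counting used strand, so reads of the 2 genes cannot be told apart there. The same holds for 8.5% of Nr1d1, shared with Thra, and 4.7% of Cry2, shared with D930015M05Rik. Per1 had 79.3, 111, 126 and 83.3 CPM in SST libraries, against 88.2 and 39.3 CPM in PV libraries (0.63 ± 0.34, adjusted p = 0.139), and passed only without PV replicate 1 (1.33, adjusted p = 0.047). Nr1d1 (-0.06 ± 0.16) and Cry1 (-0.32 ± 0.31) overlapped.

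The 7 called members (4 higher and 3 lower in SST libraries) stand beside 53.1% of all genes called, 26% higher and 27.1% lower, so the count by itself sets the members little apart. DESeq2 called 7 members and limma voom 6, where they called 56.1% and 48.9% of genes. The 2 PV libraries were also the shallowest, with 6161764 and 4933110 counts, and fold changes moved with gene length (r = 0.27 across 11347 genes, medians of -0.68 in the shortest and 0.43 in the longest sixth). All 4 members higher in SST libraries have longer exonic sequence (from 5856 bases for Per2 to 13727 for Clock) than Dbp with 2993 bases, but Cry2 (6320) and Nr1d2 (5409) are not short. With scaling within 6 length classes the same 7 members passed, at 1.26 for Per2, 0.75 for Per3, 1.07 for Arntl and 0.35 for Clock, and at -0.77 for Cry2, -1.03 for Dbp and -0.73 for Nr1d2. Clock and Per3 moved the most towards 0. Summed vascular and mural markers had 27.8 to 57.9 CPM in SST libraries and 7.7 to 18 CPM in PV libraries, where up to 6 of the 10 listed markers were at 0, and summed microglia markers had 42.2 to 50.2 and 35.5 to 36.6 CPM. Their part was not tested.

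**Figure D5:**
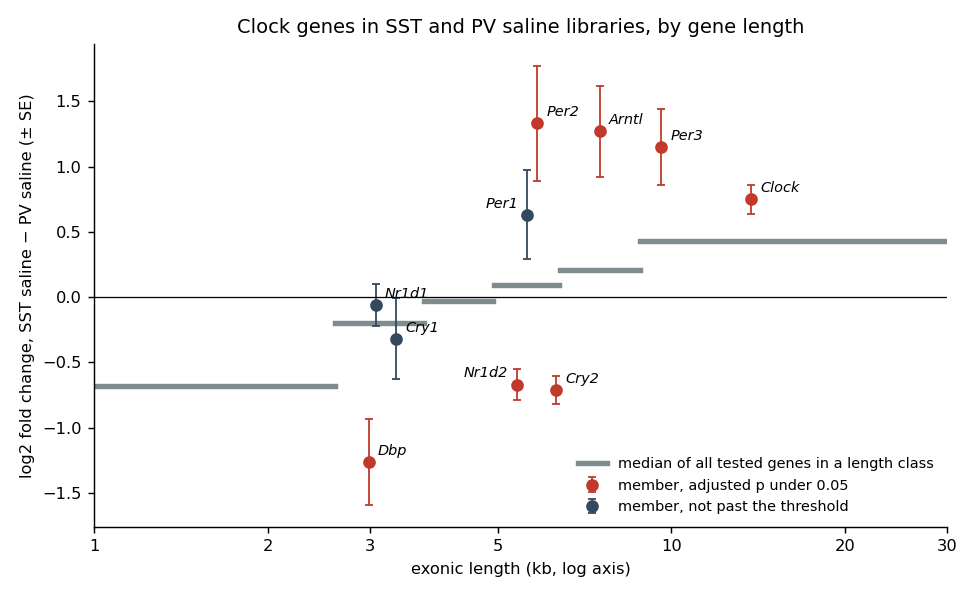
Log2 fold change of SST over PV saline libraries with its standard error (vertical axis, n = 4 and 2) against exonic length (horizontal axis, log scale). Grey bars are medians of all tested genes in 6 length classes. Red points passed an adjusted p of 0.05. Per2, Per3, Arntl and Clock lie above the median of their class and Cry2, Dbp and Nr1d2 below it.

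Other genes of the pathway were followed through lists. Of 18 other clock genes edgeR called 0 of those tested in each of the 5 comparisons of stimulus or genotype, and the genes named are those with the smallest p. In PV libraries Npas2, a relative of Clock, had 58.9 CPM after PTZ and 30.2 CPM after saline (0.97 ± 0.30), and Nfil3, a repressor that binds D-boxes, 6.93 and 3.83 CPM (0.86 ± 0.27). In SST libraries Ciart, a repressor of the CLOCK and ARNTL pair, had 11.4 CPM after PTZ and 6.46 CPM after saline (0.82 ± 0.32), and Bhlhe40, a repressor that binds E-boxes, 122 and 81.5 CPM (0.58 ± 0.23). After CFC in PV libraries, Tef, a relative of Dbp, had 225 CPM against 165 CPM in the home cage (0.45 ± 0.13), and Csnk1d, a kinase that acts on PER proteins, 147 against 99.3 CPM (0.56 ± 0.21). After CFC in SST libraries, Bhlhe40 had 58.5 against 43 CPM (0.44 ± 0.13) and Csnk1d 195 against 168 CPM (0.22 ± 0.09). In PV libraries labelled cKO Npas2 had 6.48 CPM against 2.57 CPM (1.30 ± 0.39), and Fbxl21, which acts on CRY proteins, 6.27 against 11.3 CPM (-0.84 ± 0.30). Adjusted p-values of these genes (edgeR) lay between 0.157 and 0.989. Between saline libraries 3 of 17 tested genes were higher and 5 lower in SST than in PV libraries, where 26% of all genes were higher and 27.1% lower. Bhlhe41 (-1.53 ± 0.15), Rora (-1.20 ± 0.12) and Tef (-1.23 ± 0.13) were lower and Fbxl21 (1.26 ± 0.24) higher. The median log2 fold change of the list was -0.12, against 0.01 over all 11784 genes.

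Of 18 genes that link activity to CREB, edgeR called 0 in each of the 5 comparisons. Sik1, a kinase that is itself induced through CREB and restrains its coactivators, had 20.5 CPM after PTZ and 9.89 CPM after saline in PV libraries (1.06 ± 0.26, edgeR adjusted p = 0.261). In SST libraries Sik1 had 28 CPM after PTZ and 18.4 CPM after saline (0.61 ± 0.23, adjusted p = 0.989), and its groups did not overlap in either cell type. The coactivator gene Ep300 had 530 CPM after PTZ and 385 CPM after saline in PV libraries (0.46 ± 0.20), and the protein kinase A gene Prkaca 142 and 171 CPM in SST libraries (-0.26 ± 0.16). After CFC in PV libraries, Sik2, a related kinase, had 11.8 CPM against 5.62 CPM in the home cage (1.07 ± 0.30) and the coactivator gene Crtc2 8.09 against 4.67 CPM (0.79 ± 0.35). After CFC in SST libraries, the coactivator gene Crebbp had 62.1 against 84 CPM (-0.44 ± 0.13) and the kinase gene Camk2a 402 against 496 CPM (-0.30 ± 0.12). In PV libraries labelled cKO Sik2 had 10.3 against 5.62 CPM (0.88 ± 0.30) and the kinase gene Mapk3 68.9 against 92.8 CPM (-0.43 ± 0.16). Between saline libraries 11 of the 18 were higher and 1 lower in SST libraries, where 26% of all genes were higher and 27.1% lower, and the median was 0.69 against 0.01 over all genes. Camk4 (0.97 ± 0.14) and Crtc1 (1.04 ± 0.17) were higher and Prkaca (-1.19 ± 0.18) lower. The length trend and the low depth of the PV libraries in this comparison (above) were not taken into account for this or the other gene lists.

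Per1 is also known as a target of the glucocorticoid receptor, so 14 genes that answer glucocorticoids were listed. edgeR called 0 of those tested in each of the 5 comparisons. In PV libraries Sgk1, which encodes a kinase, had 130 CPM after PTZ and 71.8 CPM after saline (0.86 ± 0.18, edgeR adjusted p = 0.239), and Errfi1, a feedback inhibitor of growth factor receptors, 99.9 and 59.8 CPM (0.74 ± 0.20, adjusted p = 0.286). In SST libraries Errfi1 had 62 CPM after PTZ and 47.5 CPM after saline (0.39 ± 0.12), and Sgk1 48.9 and 39.2 CPM (0.32 ± 0.19). After CFC in PV libraries, the metallothionein gene Mt1 had 129 CPM against 231 CPM in the home cage (-0.84 ± 0.27), and Sgk1 83 against 63.6 CPM (0.38 ± 0.14). After CFC in SST libraries, Mt1 had 97.7 against 81 CPM (0.27 ± 0.13) and Mt2 5.2 against 3.27 CPM (0.67 ± 0.41). In PV libraries labelled cKO Errfi1 had 41.5 against 53.9 CPM (-0.38 ± 0.13) and Cdkn1a, an inhibitor of the cell cycle, 7.32 against 3.51 CPM (1.06 ± 0.38). The median of the list was 0.53 in PV libraries after PTZ, against 0.21 over the 10 clock members and -0.01 over all genes tested. Marker lists had medians there of 0.47 (astrocyte), 0.60 (excitatory neuron), 0.73 (oligodendrocyte), 0.97 (vascular and mural) and 1.83 (microglia). Those of SST and PV markers were -0.02 and -0.61. The glucocorticoid list had 0.25 in SST libraries after PTZ, -0.01 and -0.05 after CFC in PV and SST libraries, and -0.05 in PV cKO libraries. Between saline libraries 1 of 12 tested genes was higher and 5 lower in SST libraries, where 26% of all genes were higher and 27.1% lower. Tsc22d3 (-2.57 ± 0.21), Mt1 (-3.56 ± 0.29) and Ddit4 (-1.56 ± 0.39) were lower and Cdkn1a (3.21 ± 0.49) higher.

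Across the 31 libraries of batches 1 to 4, after removing each batch's mean, the genes most like Per1 among 11009 were P4ha1 (Pearson's r = 0.83), Tanc2 (0.83), Frmd6 (0.80), Arpp21 (0.77) and Ehmt1 (0.77). This is a description, and the libraries share treatment, depth and composition. Among batch 1 libraries, PV PTZ replicates 1 and 2 had the highest values of Per1, P4ha1, Tanc2, Frmd6 and Arpp21. This did not hold for Ehmt1, where PTZ replicate 1 (38.6 CPM) was below replicate 3 (38.9 CPM). The correlations were not computed without these libraries. In PTZ replicates 1 to 4 P4ha1 had 44.6, 94.3, 21 and 20.5 CPM, against 8.23 to 13.8 CPM in saline libraries. Frmd6 had 64.8, 111, 24.8 and 28.2 CPM after PTZ, against 18.8 to 27.6 CPM after saline. Fos ranked 248 (r = 0.59), Arntl 325 (0.57), Per3 815 (0.49) and Per2 1179 (0.44), and Nr1d2 had the most negative value of the members (-0.45).

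The members did not follow one another closely within groups. After removing group means, Pearson's r over the 34 libraries ran from -0.48 for Clock and Dbp to 0.45 for Per2 and Arntl among 45 pairs, values that share library composition and carry no test. Per1 gave 0.18 with Per2, 0.24 with Per3 and 0.39 with Arntl, and Clock and Arntl gave -0.05. Spread within groups was largest for Per3 (SD of 0.53 on the log2 scale), Per2 (0.52) and Per1 (0.45) and smallest for Cry2 (0.18) and Clock (0.22).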

How the data were processed

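RNA bound to HA-tagged ribosomes was sequenced in 34 libraries of 11 groups and 5 batches. Batches 2 to 5 hold read counts per gene, deposited by the authors. Batch 1 holds expected counts deposited by the authors, of which 11.3% are not whole; they were rounded before testing. The submitters' processing notes name cutadapt 1.18, STAR 2.5.2a, HTSeq 0.11.0, DESeq2 and the builds mm10 and GRCm39, without roles. Totals per library ran from 4933110 to 27282912 counts, and low totals (both PV saline libraries of batch 2) give the least precise values. No column of values was left unused (0).

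Groups follow the sample titles. Each batch was fitted alone with edgeR 4.0.16 (R 4.3.3): filterByExpr, TMM scaling, quasi-likelihood F test, Benjamini-Hochberg adjustment over all genes tested, called at an adjusted p under 0.05. All libraries of a batch shared the estimate of spread. Contrasts of responses used libraries of both batches in one fit, with a mean for each group. DESeq2 1.42.0, limma 3.58.1 (voom), RLE scaling, no filter on low counts, only the compared groups, a replicate block and leaving out each library were tried as alternatives. Scaling within 6 length classes and leaving out PTZ replicates 1 and 2 together were chosen after seeing the data. The procedure was tried on simulated counts with the same spread for every gene and no trend with gene length. That trial therefore does not cover the length trends and uneven replicates of these data. Standard errors were taken from the F statistic. Gene positions and lengths come from GENCODE M21 (GRCm38), promoter windows from RefSeq (GRCm38.p6).

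Clock members and all gene lists were chosen with earlier results of these data known. From each list the text names called genes, up to 4 by p, or with none called the 2 with the smallest p; genes like Per1 are the 5 with the highest Pearson's r. One result under this rule is not reported here. Replicates were compared by their counts: 0 of 37 pairs within groups held the same values, and no pair differed by less than sampling noise (lowest chi-square over its degrees of freedom 5.89). Since separate animals are not stated for replicates, the p-values cover only the variation among these libraries, part of which may be technical.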

Additional observations from a re-analysis of the deposited data

How the results depend on the processing

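Of the single-gene values under alternatives, 915 kept direction and side of the threshold, 52 changed sign, 8 passed only under the alternative and 7 no longer passed. Genes called with DESeq2 were 211 (PV PTZ, 3 members), 38 (SST PTZ), 585 (PV CFC), 112 (SST CFC) and 652 (PV cKO), and in contrasts of responses 1 (PTZ, SST minus PV), 223 (CFC, SST minus PV), 41 (CFC minus PTZ, PV) and 64 (CFC minus PTZ, SST). Against these, edgeR called 4, 17, 0, 6 and 21 genes, and 0, 0, 1 and 10 in the contrasts. Without a filter on low counts edgeR called 1032 (PV CFC, 1 member), 11 (SST CFC) and 1072 (PV cKO). With limma voom the counts were 27 (SST PTZ) and 1 (PV CFC), and with only the compared groups 38 (SST PTZ), 2 (PV CFC) and 10 (PV cKO). Replicate numbers were not treated as pairing, since deviations of same-numbered libraries correlated from -0.23 to 0.35 and not every pair of a comparison was over 0.1. The replicate block gave 2 genes (PV PTZ), 8 (SST PTZ), 2 (PV CFC), 2 (SST CFC) and, in contrasts, 1 (PTZ, SST minus PV), 0 (CFC minus PTZ, PV) and 0 (CFC minus PTZ, SST), and called as many members as before in each. Leaving out PV PTZ replicates 1 and 2 together gave 0 genes.

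Leaving out 1 library gave 0 to 14 genes for PV PTZ (14 without saline replicate 1), 13 to 17 for SST PTZ, 0 to 1481 for PV CFC (0 to 2 members) and 7 to 1224 for PV cKO (0 to 1 members), both highest without home cage replicate 1. It gave 1 to 37 for SST CFC (37 without home cage replicate 1) and 5476 to 6982 for SST against PV saline (6 to 7 members). For contrasts it gave 0 to 1 (PTZ, SST minus PV), 0 to 881 (CFC, SST minus PV), 0 to 7 (CFC minus PTZ, PV) and 0 to 60 (CFC minus PTZ, SST).

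Changes of sign were 0.0017 for Cry2 without the filter, 0.10 for Dbp with length classes and -0.16 for Nr1d1 without both PTZ replicates (PV PTZ); 0.0033 for Nr1d1 with length classes (SST PTZ); 0.34 and 0.18 for Per3 with voom (PV CFC and PV cKO); 0.02 with voom and 0.01 with the replicate block for Arntl (SST CFC); 0.15 for Nr1d1 with length classes (SST against PV); and 0.12 for Per2 with the replicate block (PTZ, SST minus PV). Leaving out 1 library gave, for PV PTZ, -0.17 to 0.12 for Cry2 and -0.12 to 0.17 for Dbp. For SST PTZ it gave -0.15 to 0.04 for Nr1d1, -0.01 to 0.52 for Per1 and -0.05 to 0.27 for Arntl. For PV CFC it gave -0.02 to 0.29 for Dbp, -0.14 to 0.04 for Per1, -0.78 to 0.33 for Per3 and -0.04 to 0.51 for Nr1d1. For SST CFC it gave -0.11 to 0.25 for Cry1, -0.07 to 0.03 for Cry2, -0.32 to 0.37 for Arntl, -0.12 to 0.08 for Nr1d1 and -0.57 to 0.20 for Per3. For PV cKO it gave -0.23 to 1.11 for Per2, -0.90 to 0.20 for Per3, -0.23 to 0.11 for Clock and -0.12 to 0.43 for Nr1d1. For SST against PV saline it gave -0.66 to 0.19 for Cry1 and -0.30 to 0.23 for Nr1d1, and for contrasts -0.28 to 0.29 for Per2 (PTZ, SST minus PV), -0.47 to 0.64 for Per3 (CFC, SST minus PV) and -0.73 to 0.38 for Per2 (CFC minus PTZ, PV). The cause of these changes was not tested. Low depth limits some values, with as few as 12 counts for Arntl and 37 for Cry1 in a PV saline library and 30 for Per2 in a PV home cage library.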
